A study of Mus musculus with 6 samples.

Results

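The genes of the unfolded protein response and of the integrated stress response were examined in BV-2 cells with and without lipopolysaccharide (LPS). A list of 33 genes was chosen by name and role, and 32 of them had a row of their own among the 22180 genes measured. The disulfide isomerase Pdia4 had only a row named for several genes, so no value is given for it. The members were 14 chaperones and folding factors of the endoplasmic reticulum (ER), 13 of them with a row, 3 stress sensors with the effector Xbp1 (4 genes, called sensor genes here), the transcription factor Atf4, and 14 genes known as ATF4 targets.

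BV-2 is a mouse microglial line immortalised by a retrovirus carrying raf and myc oncogenes, so the cells are 1 line rather than primary microglia. The LPS group held 3 arrays of cells given 1 µg/mL LPS of Escherichia coli serotype O111:B4 for 24 h, and the control group held 3 arrays of resting cells of the same line without it. Both groups were plated in medium with reduced serum, and no source used here gives the time at which controls were collected. Replicates are numbered 1 to 3 in either group, and the labels do not say that they are separate cultures. P-values therefore cover only the array-to-array spread, part or all of which may be technical.

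When unfolded protein builds up in the ER, the sensors IRE1, PERK and ATF6 are released from the chaperone BiP. IRE1 splices the Xbp1 message, ATF6 is cleaved into a transcription factor, and the products of both raise chaperones and degradation factors. PERK and related kinases phosphorylate the translation factor eIF2 alpha, which slows protein synthesis but lets ATF4 be made, and ATF4 raises genes of amino acid supply and of cell death. In macrophages, LPS is known to engage parts of these pathways. Splicing, cleavage and phosphorylation were not measured by these arrays, which report transcript levels.

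The promoters are shown first, because the branches are known to act through different elements. ATF6 and XBP1 act through the ER stress response element (ERSE), searched here as CCAAT, 9 bases of any kind and CCACG, and through ERSE-II, searched as ATTGG, 1 base of any kind and CCACG. ATF4 acts through amino acid response elements, searched here by the core TGATGNAA. RefSeq windows (GRCm38.p6) of 300 bases, from 250 before to 50 after an annotated start, were found for 30 of the 33 members and searched on both strands. ERSE letters were in 7 of 12 chaperone windows and in 0 of 14 ATF4 target genes, against 0.137% of 27025 genes. The stretches below show these 7 genes, written on the strand on which the motif reads as spelled, with the fixed letters of the element in capitals. Hsp90b1 held the element at 2 places.
Hspa5: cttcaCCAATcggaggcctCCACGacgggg
Hsp90b1, upstream site: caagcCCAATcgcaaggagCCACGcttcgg
Hsp90b1, downstream site: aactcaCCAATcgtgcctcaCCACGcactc
Calr: tatgggCCAATgagggtcgaCCACGcgttg
Canx: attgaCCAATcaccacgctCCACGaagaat
Pdia6: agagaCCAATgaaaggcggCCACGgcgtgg
Creld2: tgtggaCCAATtgaggctcgCCACGagaag
Dnajc3: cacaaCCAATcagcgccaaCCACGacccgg
In order, they lie at chr2:34772020-34772049 (plus), chr10:86705632-86705661 (minus), chr10:86705527-86705556 (plus), chr8:84847069-84847098 (plus), chr11:50325794-50325823 (minus), chr12:17266486-17266515 (plus), chr15:88819515-88819544 (minus) and chr14:118937822-118937851 (plus).

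The core TGATGNAA was in 6 of 14 ATF4 target genes, against 4.51% of genes. These were Atf3, Nupr1, Trib3, Chac1, Vldlr and Asns, and 1 chaperone window, that of Herpud1, held it too. Of these, 4 ATF4 targets are shown, again with the fixed letters in capitals.
Atf3: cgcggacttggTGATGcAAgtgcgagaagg
Nupr1: caagccctgtcTGATGcAAtctggcccttt
Chac1: cctggcaggagTGATGcAAcggcagggaag
Asns: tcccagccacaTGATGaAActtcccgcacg
They lie at chr1:191183425-191183454 (plus), chr7:126625562-126625591 (plus), chr2:119351038-119351067 (minus) and chr6:7693214-7693243 (minus). The ERSE-II letters were in 1 chaperone window, that of Herpud1, and in 0.0444% of all genes. The 250 bases before the Herpud1 start (chr8:94386179-94386428, plus strand) carry letters of both branches, the core TGATGNAA read on the opposite strand and then ERSE-II, and are printed for this reason.
Herpud1: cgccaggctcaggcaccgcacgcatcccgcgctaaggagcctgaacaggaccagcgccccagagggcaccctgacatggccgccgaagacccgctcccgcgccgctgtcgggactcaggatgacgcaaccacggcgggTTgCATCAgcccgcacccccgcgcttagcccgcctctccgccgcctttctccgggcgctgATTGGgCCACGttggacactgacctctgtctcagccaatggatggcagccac
The shorter string CCACG, which is also part of ERSE and ERSE-II, was in 11 of 12 chaperone windows, in 9 of 14 ATF4 target genes and in 35.5% of all genes. The XBP1 core TGACGTGG was in 0 member windows and 0.714% of genes, and the cyclic AMP element TGACGTCA, which shares 6 letters with it, in that of Ppp1r15a and 2.03% of genes. A match describes letters in a window and is no evidence of binding. The members were listed for their known roles in these pathways, so these shares describe the lists and test nothing.

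Medians of log2 expression lay between 2.88 and 2.97 on the 6 arrays and upper quartiles between 4.85 and 5.27. Control replicate 2 stood apart, with a Pearson's r over all rows of 0.960 and 0.959 with the other controls, which had 0.982 with each other, and of 0.968 with LPS replicate 3. Rows with a mean above 6 were lower in control replicate 2 than in the other controls by a median of -0.52. LPS replicate 3 stood less apart over all rows, with 0.966 and 0.973 with LPS replicates 1 and 2, which had 0.979 with each other. Both arrays stood out on the stress genes below, so values for genes that they moved most are also given without both. The 2 arrays were picked from these same data. Of 13 macrophage and microglia markers, 12 had a mean above 3.08. This is the 95th percentile of the 1421 rows named for chemosensory receptors, taken here as a background level. The exception was Tmem119 at 2.68. Aif1, Cx3cr1 and P2ry12 lay only a little above that level, at 3.97, 3.70 and 3.65, and the remaining markers had means of 7.33 or more. Of 10 measured markers of other cell types, 1 lay above that level, Rbfox3 at 3.46. The LPS response itself was present, with log2 fold changes of 6.60 for Acod1 and 5.43 for Il1b (limma adjusted p = 0.0012 and 0.0073), and every LPS array lay above every control for both.

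None of the 32 stress genes passed the test for LPS against control. At adjusted p under 0.05 in limma, 0 members were higher and 0 lower, where 0.193% of 41345 rows were higher and 0.0% lower. At an unadjusted p under 0.05, 4 members were higher and 0 lower, where 4.98% of rows were higher and 1.40% lower. Of the 6984 rows with a mean above 6, 736 were higher and 67 lower. The 4 members were the folate enzyme gene Mthfd2, the IRE1 gene Ern1, the phosphatase subunit gene Ppp1r15a and the stress regulator gene Nupr1. The count was 2 without LPS replicate 1, 2 without LPS replicate 2 and 2 after quantile normalization. In a fit of the other 4 arrays, without control replicate 2 and LPS replicate 3, 4 members were higher and 1 lower, where 5.47% of rows were higher and 5.73% lower. All 3 LPS arrays lay above all 3 controls for 6 members, which add Atf3 and Trib3, and below for 0. Among all rows, 7.74% lay above and 3.48% below, and of the 6984 rows with a mean above 6, 1030 lay above and 67 below. The 95% interval of the fold change stayed inside a 2-fold change either way for 17 of the 32 members. This is a smaller share than the 78.4% of all rows or the 4563 of 6984 rows with a mean above 6. For the other members the interval reached a 2-fold change in at least 1 direction.

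**Figure D1:**
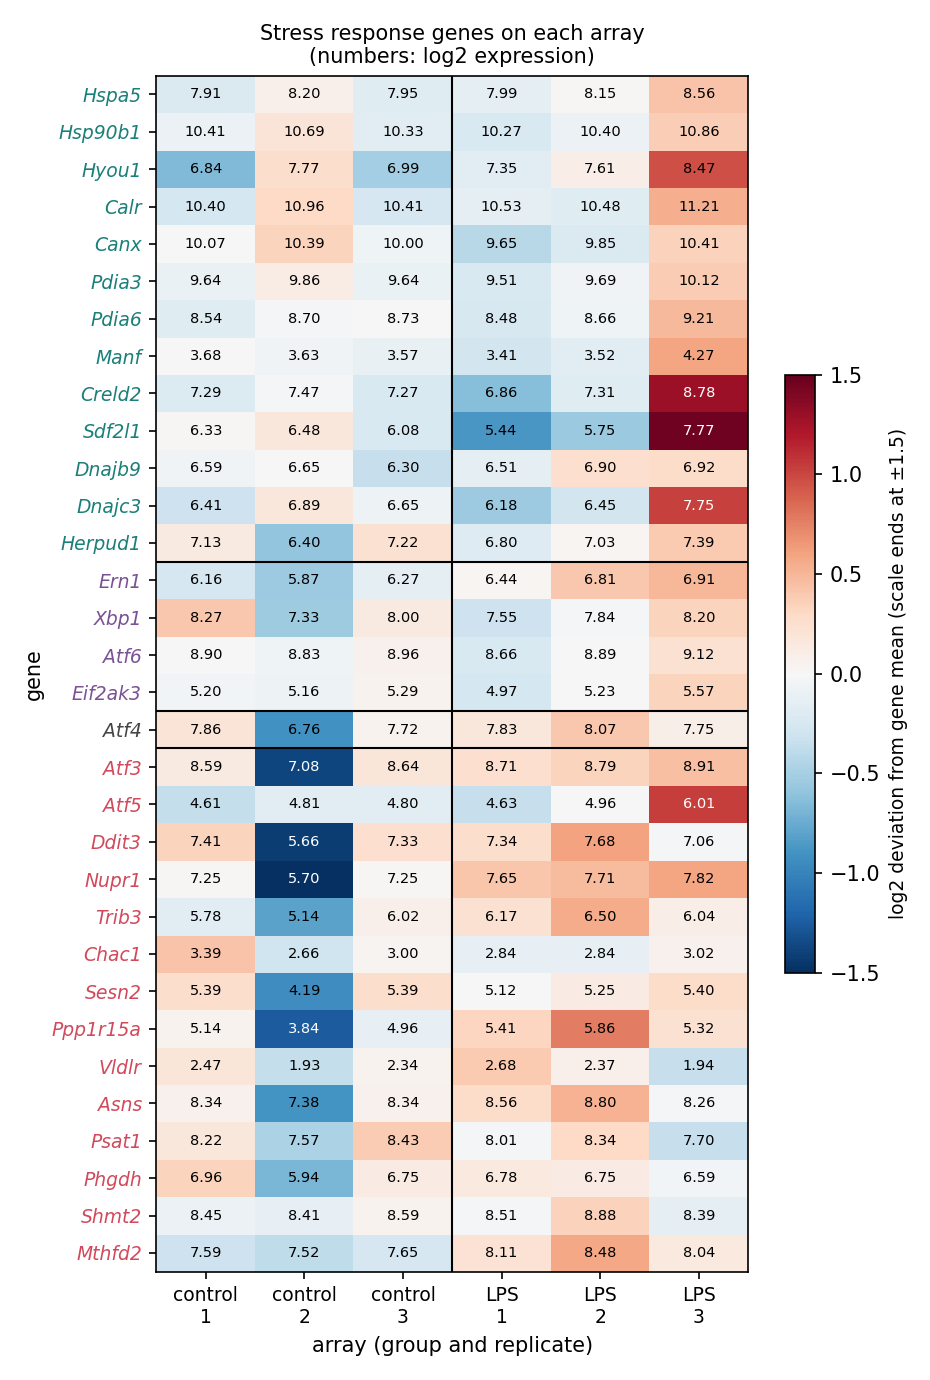
Log2 expression of the 32 measured genes (rows) on each array (columns), printed in each cell, with colour giving the deviation from the gene's own mean over the 6 arrays. In these deposited values, chaperones (top block) are highest in LPS replicate 3, and most ATF4 targets (bottom block) are lowest in control replicate 2.

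The main chaperones differed between the groups by less than the spread between arrays. Hspa5, which codes for BiP, the main ER chaperone and the partner of all sensors, measured 7.91, 8.20 and 7.95 in control replicates 1 to 3 and 7.99, 8.15 and 8.56 in the LPS replicates. The groups overlapped, and only LPS replicate 3 lay above control replicate 2. LPS over control gave a log2 fold change of 0.21 (SE 0.19, 95% interval -0.24 to 0.67, adjusted p = 1.00 in limma). Hsp90b1, the ER member of the HSP90 family, had a control mean of 10.48 ± 0.19 and an LPS mean of 10.51 ± 0.31 (SD, n = 3). The difference was 0.03 with an interval from -0.44 to 0.51. The lectin chaperones, which hold glycoproteins until they fold, had log2 fold changes of 0.15 for Calr (-0.47 to 0.77) and -0.18 for Canx (-0.74 to 0.37). Canx was the only chaperone with a value below 0 in the reported fit, and after quantile normalization or cyclic loess, which removes level-dependent shifts between arrays, 6 of 13 were above 0. The disulfide isomerases Pdia3 and Pdia6 had 0.06 and 0.12, and the upper ends of their intervals were 0.52 and 0.63.

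Hyou1, which exchanges nucleotide on BiP, had the largest log2 fold change among chaperones at 0.61 (SE 0.36, adjusted p = 0.94 in limma). Its values were 6.84, 7.77 and 6.99 in the controls and 7.35, 7.61 and 8.47 after LPS. Control replicate 2 lay above LPS replicates 1 and 2, and the other controls lay below all LPS arrays. Without control replicate 2 and LPS replicate 3 it was 0.57 with a smaller error (SE 0.19, limma adjusted p = 0.34), and this fit put its unadjusted p under 0.05. These arrays were picked from these same data and were the highest of their groups for Hyou1. Leaving them out narrows the error, so this p-value is only a description.

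The ER stress-induced genes Sdf2l1, Creld2 and Dnajc3 varied most within the LPS group. Sdf2l1, a partner of the co-chaperones of BiP, measured 6.33, 6.48 and 6.08 in the controls and 5.44, 5.75 and 7.77 after LPS. LPS replicates 1 and 2 were below all controls and LPS replicate 3 above all. The log2 fold change of 0.02 (SE 0.58) thus averaged opposite values. Without control replicate 2 and LPS replicate 3 it was -0.61 (SE 0.20, limma adjusted p = 0.33), the 1 member lower at an unadjusted p under 0.05 in that fit. The arrays left out were the highest of their groups for Sdf2l1, so this p-value too is only a description. Creld2, an ER protein with disulfide isomerase activity, measured 7.29, 7.47 and 7.27 in the controls and 6.86, 7.31 and 8.78 after LPS. Dnajc3, a co-chaperone of BiP, measured 6.41, 6.89 and 6.65 in the controls and 6.18, 6.45 and 7.75 after LPS. Both had a single high array, LPS replicate 3, and their log2 fold changes of 0.31 and 0.14 became -0.19 and -0.22 without control replicate 2 and LPS replicate 3.

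The remaining chaperones had intervals that included 0. Manf, a secreted ER protein with trophic activity, had 0.11 (-0.47 to 0.68) on a dim row with a mean of 3.68. The BiP co-chaperone gene Dnajb9, a target of spliced XBP1, had 0.27 (-0.16 to 0.69), and 0.26 without both arrays. Herpud1, a part of the ER-associated degradation machinery, was lowest in control replicate 2 at 6.40, where the other arrays lay between 6.80 and 7.39. Its log2 fold change was 0.16 and became -0.26 without control replicate 2 and LPS replicate 3.

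Among the sensor genes, Ern1 had the largest difference. It measured 6.16, 5.87 and 6.27 in the controls and 6.44, 6.81 and 6.91 after LPS, so every LPS array was above every control. The difference was 0.62 on the log2 scale, or 1.54-fold (SE 0.19, interval 0.17 to 1.07, limma adjusted p = 0.53). Its unadjusted p was under 0.05 in the reported fit and in 15 of 16 alternative settings, the exception being the fit without control replicate 2 and LPS replicate 3, where the log2 fold change was 0.41. The ATF6 gene Atf6 had -0.01 (-0.39 to 0.38) and the PERK gene Eif2ak3 0.04 (-0.40 to 0.48). Xbp1, the target of IRE1 splicing, measured 8.27, 7.33 and 8.00 in the controls and 7.55, 7.84 and 8.20 after LPS. Its log2 fold change was 0.00 (-0.68 to 0.68), and -0.43 without both arrays (limma adjusted p = 0.52). The sign of this difference is not settled by these arrays.

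**Figure D2:**
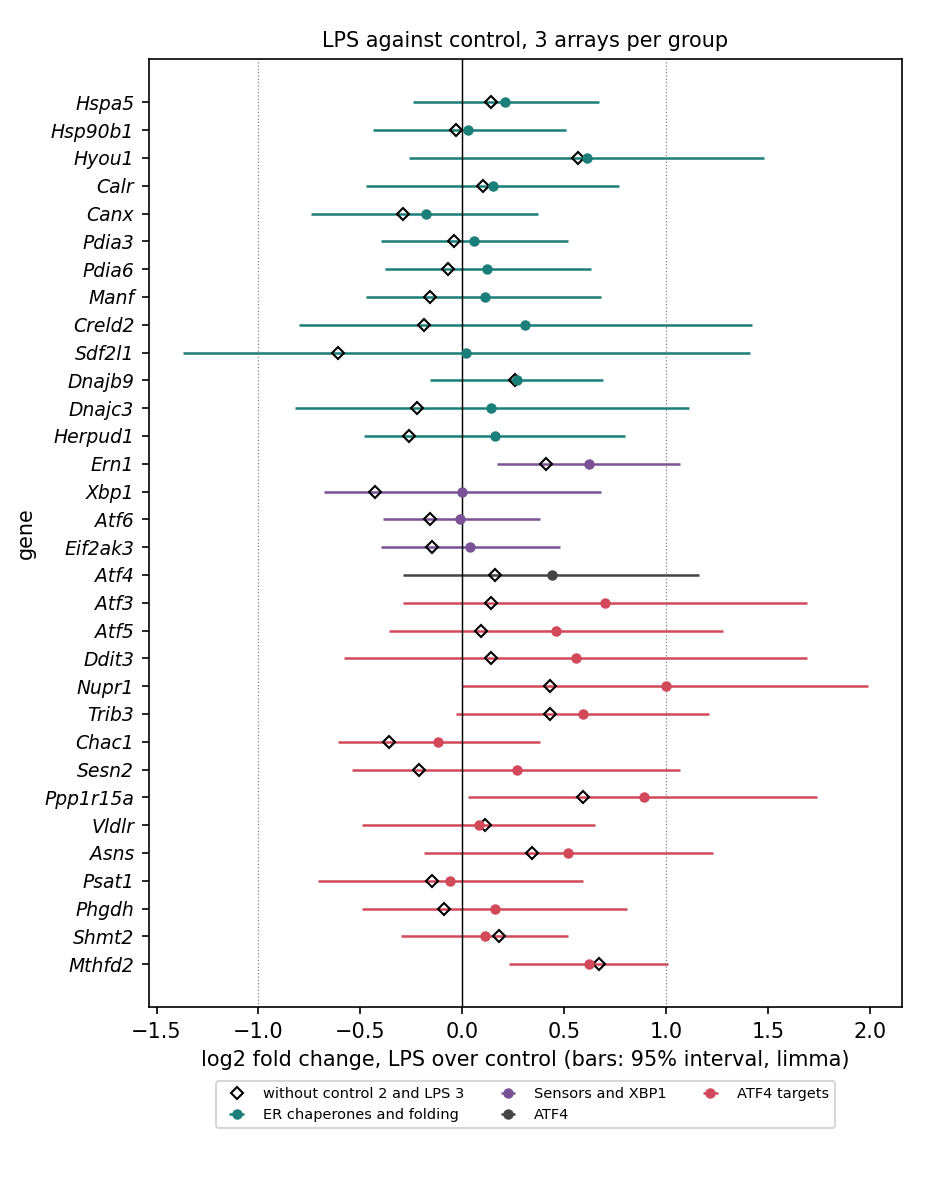
Log2 fold change of LPS over control for each gene, with 95% intervals from limma (3 arrays per group) and, as open diamonds, the value without control replicate 2 and LPS replicate 3. Dotted lines mark a 2-fold change, and the intervals of Mthfd2, Ern1, Ppp1r15a and Nupr1 lie above 0.

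Atf4 itself measured 7.86, 6.76 and 7.72 in the controls and 7.83, 8.07 and 7.75 after LPS. Control replicate 2 was low and the other 5 arrays lay close together. Its log2 fold change was 0.44 (SE 0.30, adjusted p = 0.97 in limma), and 0.16 (SE 0.18) without control replicate 2 and LPS replicate 3. Ddit3, which codes for the pro-apoptotic factor CHOP, had the widest range in the controls, at 7.41, 5.66 and 7.33, against 7.34, 7.68 and 7.06 after LPS. Control replicate 2 was the lowest array and the groups overlapped. Its log2 fold change of 0.56 (SE 0.48) became 0.14 without both arrays. Atf3, a stress and inflammation factor that restrains Toll-like receptor target genes, measured 8.59, 7.08 and 8.64 in the controls and 8.71, 8.79 and 8.91 after LPS. All LPS arrays were higher, but the log2 fold change of 0.70 (SE 0.41) became 0.14 (SE 0.17) without both arrays. Atf5, a factor related to ATF4, was highest in LPS replicate 3 at 6.01, where the other arrays lay between 4.61 and 4.96, and its log2 fold change of 0.46 became 0.09 without both arrays.

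Nupr1, a small stress-induced chromatin protein gene, had the largest log2 fold change of all members. It measured 7.25, 5.70 and 7.25 in the controls and 7.65, 7.71 and 7.82 after LPS. The difference was 1.00 on the log2 scale (SE 0.42, interval 0.00 to 1.99, limma adjusted p = 0.78), with an unadjusted p just under 0.05. Without control replicate 2 and LPS replicate 3 it was 0.43 (SE 0.16, limma adjusted p = 0.41). All LPS arrays were thus above the controls with and without the low control array, by a smaller amount without it.

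The feedback genes of the pathway had values above 0 with wide errors. Ppp1r15a codes for GADD34, the phosphatase subunit that removes phosphate from eIF2 alpha and restores translation. It measured 5.14, 3.84 and 4.96 in the controls and 5.41, 5.86 and 5.32 after LPS, with no overlap. Its log2 fold change was 0.89 (SE 0.36, adjusted p = 0.75 in limma), and 0.59 (SE 0.22, adjusted p = 0.40) without both arrays. Trib3, a pseudokinase that dampens ATF4 and AKT signalling, measured 5.78, 5.14 and 6.02 in the controls and 6.17, 6.50 and 6.04 after LPS. The groups did not overlap, though control replicate 3 and LPS replicate 3 nearly met, and the log2 fold change was 0.59 (SE 0.26, adjusted p = 0.82 in limma). It was 0.34 without control replicate 2 and 0.43 without both arrays.

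For other ATF4 targets the interval included 0. Sesn2, a sestrin that restrains growth signalling, had 0.27 (-0.54 to 1.07), and the lipoprotein receptor gene Vldlr had 0.08 (-0.49 to 0.65). Chac1, which codes for an enzyme that degrades glutathione and responds strongly to ATF4, measured 3.39, 2.66 and 3.00 in the controls and 2.84, 2.84 and 3.02 after LPS. Chac1 and Vldlr, with means of 2.96 and 2.29, were the 2 members not above the level of 3.08 set from chemosensory receptor rows, so their signals lie near background and 30 members lie above it.

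Among the amino acid and folate enzymes, Mthfd2 had the lowest p-value. Mthfd2 codes for a mitochondrial enzyme of folate metabolism, and it measured 7.59, 7.52 and 7.65 in the controls and 8.11, 8.48 and 8.04 after LPS. The controls were tight, control replicate 2 included, and every LPS array was higher. The difference was 0.62 on the log2 scale, or 1.54-fold (SE 0.16, interval 0.23 to 1.01, limma adjusted p = 0.43, the lowest of all members). It was 0.67 without control replicate 2 and LPS replicate 3 and between 0.49 and 0.70 without any 1 array, and of the 16 alternatives its unadjusted p missed 0.05 only after quantile normalization. The asparagine synthetase gene Asns measured 8.34, 7.38 and 8.34 in the controls and 8.56, 8.80 and 8.26 after LPS, a log2 fold change of 0.52 (-0.19 to 1.23). It was 0.20 without control replicate 2 and 0.34 without that array and LPS replicate 3. The serine synthesis genes Phgdh and Psat1 had 0.16 and -0.06, and the mitochondrial serine hydroxymethyltransferase gene Shmt2, whose product supplies the folate units that Mthfd2 handles, had 0.11 (-0.30 to 0.52).

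Set side by side, ATF4 targets had a larger median than chaperones in the reported fit and not without control replicate 2. The median log2 fold change was 0.14 over 13 chaperones, 0.49 over 14 ATF4 targets and 0.02 over the 4 sensor genes, against 0.03 over all rows and 0.15 over the 6984 rows with a mean above 6. Values were above 0 for 12 of 13 chaperones and 12 of 14 ATF4 targets. They were above 0 for 55.8% of all rows and for 5048 of the 6984 rows with a mean above 6. After quantile normalization and cyclic loess, 6 of 13 chaperones and 10 of 14 ATF4 targets were above 0, and the chaperone median was -0.03 and -0.01. The ATF4 target median minus the chaperone median was 0.35, and leaving out control replicate 2 made it -0.01, leaving out LPS replicate 3 made it 0.57, and leaving out both made it 0.20. With both left out, 4 of 13 chaperones and 10 of 14 ATF4 targets were above 0. The median over all rows was -0.02 in that fit and -0.02 after quantile normalization. No test was made of these medians.

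The branches differed more between arrays of the same group than between the groups. LPS replicate 3 was the highest of the 6 arrays for 13 of 13 chaperones and for 4 of 14 ATF4 targets, where it was highest for 21.6% of rows and 30.8% of rows with a mean above 6. After cyclic loess, LPS replicate 3 was the highest array for 6 of 13 chaperones and control replicate 2 for the other 7, where these arrays were highest for 20.3% and 23.8% of rows with a mean above 6. In the deposited values, LPS replicate 3 lay above the mean of the other LPS replicates by a median of 0.66 over the chaperones, from 0.22 for Dnajb9 to 2.18 for Sdf2l1, and by a median of -0.27 over the ATF4 targets. Control replicate 2 was the lowest of the 6 arrays for 12 of 14 ATF4 targets and for 1 of 13 chaperones, Herpud1, where it was lowest for 32.0% of rows and 64.2% of rows with a mean above 6. After cyclic loess it was lowest for 9 of 14 ATF4 targets and 1 of 13 chaperones, where it was lowest for 23.8% of rows with a mean above 6. In the deposited values, its median difference from the other controls was -0.84 over the ATF4 targets, with -1.71 for Ddit3 as the largest, and 0.27 over the chaperones, with 0.86 for Hyou1 as the largest. Chaperones were thus not low on the array on which brighter rows were low as a whole. What set these arrays apart was not tested.

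**Figure D3:**
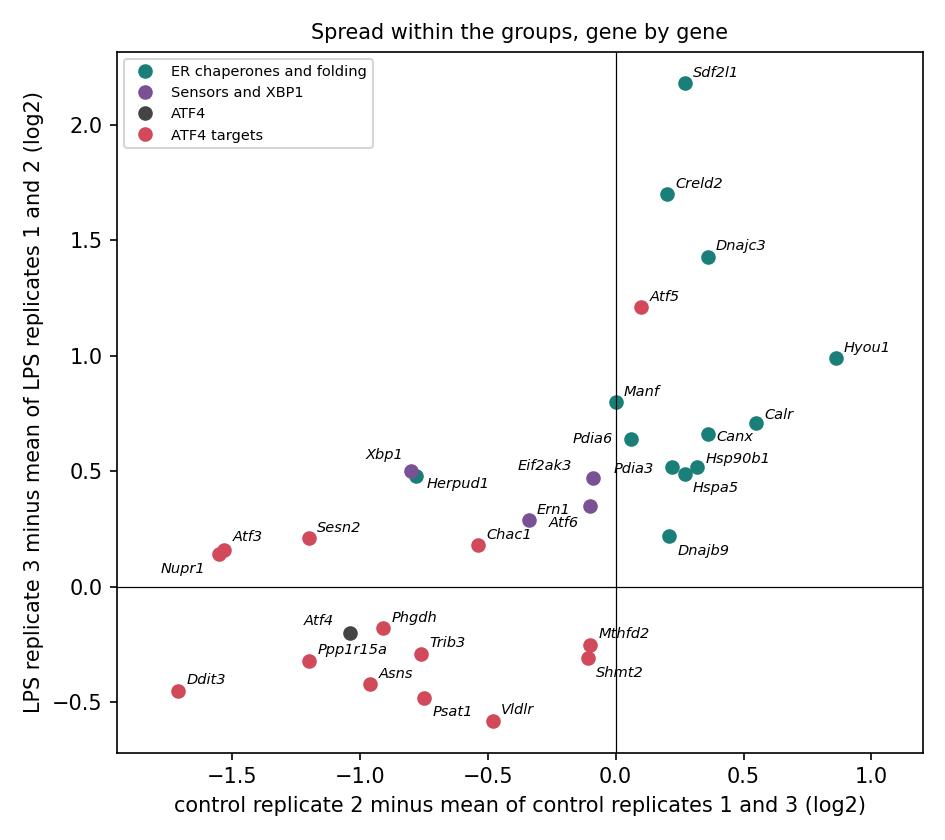
For each gene, the difference of control replicate 2 from the other controls (horizontal, log2) and of LPS replicate 3 from the other LPS replicates (vertical, log2). Chaperones lie in the upper part, 1 of 13 with control replicate 2 below the other controls, and ATF4 targets lie to the left, 13 of 14 with control replicate 2 below.

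Control replicate 2 and LPS replicate 3 were the 2 highest arrays for 9 of 13 chaperones, Hspa5, Hsp90b1, Hyou1, Calr, Canx, Pdia3, Creld2, Sdf2l1 and Dnajc3, where 8.34% of rows and 6.44% of rows with a mean above 6 had this order. The same arrays were the 2 lowest for 6 ATF4 targets, Ddit3, Vldlr, Asns, Psat1, Phgdh and Shmt2, where 12.9% of rows and 23.5% of rows with a mean above 6 had that order. Among these were 4 of the 5 amino acid and folate enzyme genes, all but Mthfd2. After cyclic loess 12 of 13 chaperones had this pair of arrays highest, where 19.0% of rows with a mean above 6 did. The number of ATF4 targets with the pair lowest was then 5 of 14, with 3 of the 5 enzyme genes (Asns, Psat1 and Phgdh), where 18.9% of rows with a mean above 6 did. These orders are a description of 6 arrays, were noticed in the data and were not tested.

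Across the arrays, the median deviation of the chaperones from their own means was -0.11, 0.12 and -0.17 in control replicates 1 to 3 and -0.23, -0.09 and 0.49 in the LPS replicates. For the ATF4 targets it was 0.10, -0.75 and 0.06 in the controls and 0.22, 0.34 and 0.08 after LPS. The chaperone median of LPS replicate 2 lay among those of the controls, that of LPS replicate 1 lay a little below them, and LPS replicate 3 stood above. After cyclic loess, chaperone medians were -0.22, 0.54 and -0.30 in the controls and -0.21, -0.25 and 0.41 after LPS, so control replicate 2 was then the highest array. The ATF4 target medians of all LPS arrays but replicate 3 lay above those of all controls, and control replicate 2 stood below, on an array where the median of rows with a mean above 6 was -0.43. After cyclic loess, ATF4 target medians were 0.04, -0.39 and 0.02 in the controls and 0.27, 0.15 and -0.02 after LPS, so control replicate 2 remained the lowest array by a smaller amount. The median of the 5 amino acid and folate enzyme genes on it was then -0.03.

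**Figure D4:**
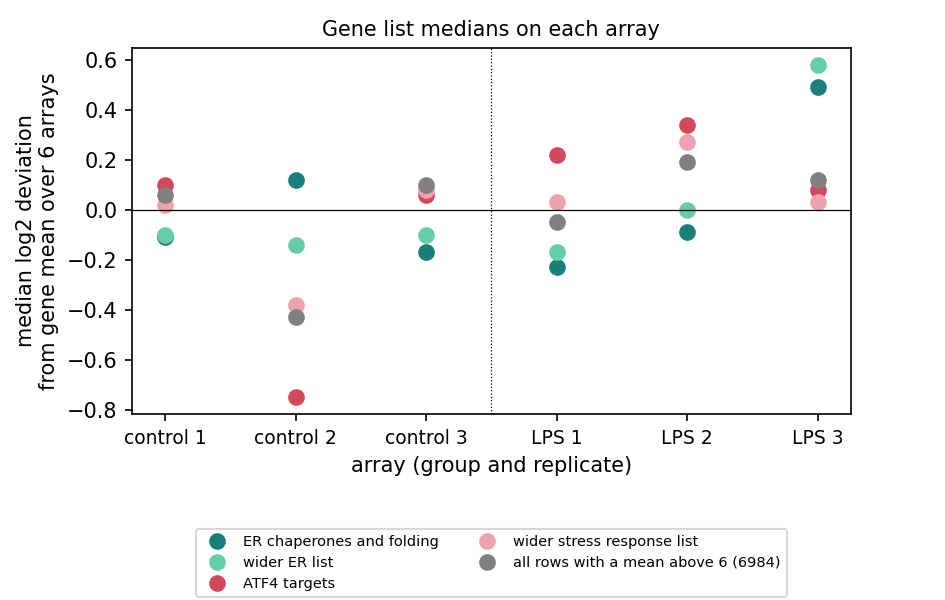
Median log2 deviation from each gene's own mean over the 6 arrays, for 4 gene lists and for all rows with a mean above 6, on each array. In these deposited values, chaperones are highest in LPS replicate 3 at 0.49 (after cyclic loess, in control replicate 2), and ATF4 targets are lowest in control replicate 2 at -0.75.

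Other genes of the pathways, listed by role, held 1 gene that rose. Of 34 further ER genes, covering folding, translocation, degradation and sensors, 0 passed in limma over the whole table, and the median was 0.24. At an unadjusted p under 0.05, 6 of them were higher and 0 lower (4.98% and 1.40% of all rows). Of the 6984 rows with a mean above 6, 736 were higher and 67 lower. The largest differences among these ER genes were those of the ATF6 relative Atf6b at 0.79 (SE 0.27, adjusted p = 0.62 in limma), the disulfide isomerase gene Pdia5 at 0.69 (SE 0.26, adjusted p = 0.70) and Hspa13 at 0.65 (SE 0.21, adjusted p = 0.58). LPS replicate 3 was the highest array for 28 of the 34 (30.8% of rows with a mean above 6), and for 22 after cyclic loess (20.3% of such rows). Of 44 further integrated stress response genes 39 had a row, with a median of 0.17, and 1 rose, the cystine transporter gene Slc7a11. It measured 5.38, 4.37 and 5.29 in the controls and 8.54, 8.85 and 8.69 after LPS, with no overlap. The difference was 3.68 on the log2 scale (SE 0.29, adjusted p = 0.0099 in limma). Slc7a11 is also a target of NRF2, and a second, dimmer row of the gene had 1.84 (adjusted p = 0.35). Its adjusted p was between 0.055 and 0.10 without control replicate 1 or 3 or LPS replicate 1 or 2, so the call was lost in each of these fits, while the log2 fold change lay between 3.60 and 3.86.

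At an unadjusted p under 0.05, 4 of these 39 genes were higher and 0 lower, where 4.98% of rows were higher and 1.40% lower. Of the 6984 rows with a mean above 6, 736 were higher and 67 lower. Besides Slc7a11 the higher genes were, named after their values were seen, the C/EBP factor gene Cebpb (1.17, SE 0.39), the interferon-inducible eIF2 alpha kinase gene Eif2ak2 (0.88, SE 0.15) and the tryptophanyl-tRNA synthetase gene Wars (0.57, SE 0.20). Their limma adjusted p-values were 0.60, 0.16 and 0.67. All 3 code for proteins known to respond to inflammatory signals or interferon as well. The 11 tRNA synthetase genes with a row had log2 fold changes between 0.12 and 0.57 and a median of 0.31, and control replicate 2 was the lowest array for 11 of 11. All 11 had a mean above 6, and 64.2% of such rows were lowest on this array. After cyclic loess it was lowest for 5 of 11, against 23.8% of such rows.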

How the data were processed

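The authors deposited a table of log2 expression values, 1 row per transcript cluster and 1 column per array. The submitters' processing notes name Affymetrix Expression Console. Its version, background correction and normalization were not given in the sources used here, and the log2 scale was read from the values. Of 41345 rows, 23521 had 1 gene symbol in the platform annotation, 1814 several and 16010 none. Each member took its single-symbol row with the highest mean. LPS was compared with control in limma 3.58.1 (R 4.3.3, lmFit and eBayes) on all rows, with no filter and Benjamini-Hochberg adjustment over all rows. Intervals are moderated 95% intervals of 1 gene, errors of group means are SD of 3 arrays, and the number of arrays limits the precision. The fit was tested on simulated data with independent noise in each row and no shifts between arrays. That test does not cover arrays that stand apart, as in these data. Members, lists, named genes (all members, called genes or the 3 largest differences of each wider list, and others where said to be named after their values were seen) and motifs were chosen with earlier results of these data known. Promoter sequences are from RefSeq (GRCm38.p6). The array's genome build was not given, so no array coordinates are used. Alternatives covered normalization, dim rows, rows per gene, moderation, array weights, a replicate block and arrays left out.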

Additional observations from a re-analysis of the deposited data

How the results depend on the processing

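In each of 16 alternatives 0 members passed over all rows in limma, as in the reported fit. The number of rows called, 80 as reported, was 132 with array weights, 7 with the replicate block, 219 without control replicate 2 and LPS replicate 3, and between 15 and 82 without any 1 array. The labels number the replicates but do not say whether same-numbered arrays were paired. Deviations from the group means correlated at 0.0691, -0.255 and -0.222 between same-numbered arrays. With 3 arrays per group, these values cannot show whether the arrays were paired. No member was called with or without the replicate block. Members at an unadjusted p under 0.05 numbered 2 after quantile normalization and between 2 and 5 without any 1 array. The call of Slc7a11, the only one in the wider lists, was lost with the replicate block (0 called, log2 fold change 3.68), and these lists had 0 or 1 called without any 1 array. The medians of the lists moved by less than the spread between arrays in every alternative. That spread was the larger of the group SDs of the array medians. It includes control replicate 2 and LPS replicate 3, so it is wide and cannot show that the medians were stable. Without control replicate 2 the ATF4 target median fell from 0.49 to 0.13, and its difference from the chaperone median from 0.35 to -0.01. A change of sign occurred for 19 members, none of them called. After quantile normalization log2 fold changes were -0.06 for Dnajc3, -0.12 for Eif2ak3, -0.03 for Herpud1, Hsp90b1 and Pdia3, -0.04 for Pdia6, -0.02 for Phgdh, -0.17 for Sdf2l1, -0.08 for Shmt2 and -0.19 for Xbp1. After cyclic loess they were -0.03 for Dnajc3, -0.10 for Eif2ak3 and Hsp90b1, -0.01 for Herpud1 and Phgdh, -0.08 for Pdia3, -0.04 for Pdia6, -0.15 for Sdf2l1, -0.05 for Shmt2 and -0.17 for Xbp1. Array weights gave -0.02 for Herpud1 and Phgdh, -0.13 for Sdf2l1 and -0.19 for Xbp1, and median centring -0.01 for Xbp1. Without control replicate 2 and LPS replicate 3 they were -0.19 for Creld2, -0.22 for Dnajc3, -0.15 for Eif2ak3, -0.26 for Herpud1, -0.03 for Hsp90b1, -0.16 for Manf, -0.04 for Pdia3, -0.07 for Pdia6, -0.09 for Phgdh, -0.61 for Sdf2l1, -0.21 for Sesn2 and -0.43 for Xbp1. Without any 1 array the ranges were -0.12 to 0.11 for Atf6, -0.09 to 0.33 for Calr, -0.30 to 0.07 for Chac1, -0.26 to 0.71 for Creld2, -0.01 to 0.86 for Ddit3, -0.34 to 0.45 for Dnajc3, -0.12 to 0.18 for Eif2ak3, -0.10 to 0.31 for Herpud1, -0.14 to 0.15 for Hsp90b1, -0.16 to 0.27 for Manf, -0.11 to 0.19 for Pdia3, -0.09 to 0.27 for Pdia6, -0.15 to 0.36 for Phgdh, -0.31 to 0.12 for Psat1, -0.70 to 0.46 for Sdf2l1, -0.13 to 0.47 for Sesn2, -0.03 to 0.21 for Shmt2, -0.09 to 0.27 for Vldlr and -0.27 to 0.20 for Xbp1. Apart from the arrays left out or reweighted, the cause of these changes was not tested.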

Other observations

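In the wider lists, 3 genes lay furthest below the rest of their group on both control replicate 2 and LPS replicate 3, and were named after their values were seen. Ddit4, a stress-induced inhibitor of mTORC1, measured 5.58, 3.02 and 5.40 in the controls and 5.18, 5.18 and 2.70 after LPS. It was low on 1 array of each group, and its log2 fold change of -0.31 did not pass (limma adjusted p = 1.00). Ero1a, the ER oxidase that is also induced by hypoxia, measured 10.07, 8.70 and 10.28 in the controls and 10.54, 10.69 and 9.14 after LPS. Aldh1l2, a mitochondrial folate enzyme, measured 5.92, 4.32 and 5.75 in the controls and 5.71, 5.79 and 4.46 after LPS. In the wider integrated stress response list, these arrays were the 2 lowest for 14 of 39 genes, among them 6 of 11 tRNA synthetase genes, where 12.9% of rows and 23.5% of rows with a mean above 6 had that order. After cyclic loess they were 13 of 39 and 5 of 11, against 18.9% of rows with a mean above 6. In the wider ER list they were the 2 highest for 6 of 34 genes, where 8.34% of rows had that order, and after cyclic loess for 19 of 34, against 19.0% of rows with a mean above 6.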
